A study of Arabidopsis thaliana with 38 samples.

Results

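The class III peroxidase genes of the Arabidopsis thaliana root described here are AT4G11290, AT1G44970, AT4G16270, Prx37 and AT5G64120. They were picked by name from results of these arrays, 5 genes out of 55 class III peroxidases that have a named probe set (a set of oligonucleotides that reads 1 transcript) among the 22746 probe sets used. The values that picked them were those of wild type (WT) against the line labelled SHR in ground tissue, for Prx37 also those of the meristem, and for AT4G11290 also those of CO2 cells against ground tissue. Their levels in those comparisons are therefore a description, not a test.

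The data are signals of 38 ATH1 arrays in 13 groups, all from roots of seedlings 5 days old on standard medium. In the C24 ecotype, cells were sorted by J0571, a marker and driver line of the ground tissue, the root layers made of cortex and endodermis. These 30 arrays (3 per group) hold WT and SHR under a two-cycle labelling protocol, WT and SHR under a one-cycle protocol, and 6 one-cycle groups in which the SHR background carries UAS driving BLJ, NUC, MGP, JKD, SCR or IME, so every UAS group shares whatever SHR carries. In the Columbia ecotype, one-cycle arrays came from dissected meristematic regions of WT (2 arrays) and of a line labelled BLJ (3 arrays), and from WT cells of the meristematic zone sorted by the cortex marker CO2 (3 arrays). SHR and SCR are transcription factors that pattern the ground tissue, and BLJ, NUC, MGP, JKD and IME belong to a family of zinc finger regulators that work in the same layers. The labels call the arrays of a group biological replicates. Whether the names SHR and BLJ denote mutants and whether a UAS line is 1 transformant is not stated in the labels. Nor is it stated how the plants of the replicates were kept apart, so p-values measure the spread between these arrays.

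Class III peroxidases are secreted haem enzymes of plants. With hydrogen peroxide they couple lignin monomers and wall proteins and so stiffen the wall, or they make reactive oxygen species that loosen it. In the root, some of them act in the endodermis, where lignin of the Casparian strip seals the space between cells, and others act in root hairs. AT4G11290 and AT1G44970 belong to the peroxidases needed together for Casparian strip lignin. AT1G44970 and AT4G16270 are also known as extensin peroxidases of the anther. AT4G11290 and AT4G16270 are known targets of UPB1, a repressor of peroxidase genes at the root's transition to elongation. AT5G64120 (PRX71) acts in wall stiffening and growth restraint after wall damage, and overexpression of Prx37 makes dwarf plants.

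Some facts of the arrays bear on the values below. Median signals ran from 55.8 to 177.5. The lower end of the signals differed between groups: the 10th percentile of an array lay between 3.02 and 3.98 in one-cycle WT, SHR and UAS-BLJ and between 8.08 and 10.2 in the other 5 UAS groups. The log2 ratio of the 3′ to the 5′ GAPDH probe sets, a sign of RNA or labelling quality, lay between -0.226 and 0.493 in one-cycle WT and SHR, between 1.34 and 1.45 in UAS-SCR, between 0.554 and 2.07 in the line labelled UAS-JKD and between 1.93 and 3.10 in two-cycle SHR. The same ratio lay between -0.103 and 0.107 in two-cycle WT and between -0.117 and 0.0915 in UAS-BLJ. It lay between 0.652 and 0.752 in UAS-NUC, between 0.658 and 1.16 in UAS-MGP and between 0.401 and 0.722 in UAS-IME. The driven gene could be checked in 2 lines. BLJ read 443.3 ± 40.1 (SD, n = 3) in UAS-BLJ and 14.2 ± 9.1 (n = 3) in SHR, whereas JKD read 102 ± 15.4 in the arrays labelled UAS-JKD and 215.1 ± 41.2 in SHR, which goes against that label. JKD was also lower than in SHR in UAS-BLJ and in UAS-MGP (limma adjusted p under 0.05). The UAS-MGP call ended when single arrays were left out. Of the 2 driven genes BLJ and JKD, 1 was also called lower than in SHR in UAS-NUC and 1 in UAS-IME. The median change of the 2 genes was -0.51 and -1.46 in these lines, and 0 were called in UAS-SCR. Where the JKD probe set lies in the gene was not tested. The group with the JKD label is therefore called the line labelled UAS-JKD.

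In ground tissue, 4 of the genes were high in WT and low in SHR. AT4G11290 read 5358, 4416 and 5488 in the 3 one-cycle WT arrays and 36.4, 22.9 and 35.4 in the 3 SHR arrays. Under the two-cycle protocol it read 2536, 6476 and 2588 in WT and 4.26, 4.27 and 4.64 in SHR. The groups lay far apart in both sets, and the second two-cycle WT array stood above the others. The difference, WT minus SHR on the log2(signal + 16) scale used for every change below, was 6.75 ± 0.26 (SE) in the one-cycle set and 7.43 ± 0.37 in the two-cycle set. This scale understates changes of low signals. In bulk RNA, fewer cells of a type and less RNA per cell cannot be told apart.

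AT1G44970 followed the same course. Its WT signals were 3182, 2015 and 3104 in the one-cycle set and 2995, 6830 and 2692 in the two-cycle set. In SHR it read 148.9, 92.6 and 160.8 in the one-cycle set but 26.0, 6.17 and 10.3 in the two-cycle set. The WT levels of the protocols overlapped, and the SHR levels did not. The difference was 4.21 ± 0.36 in the one-cycle set and 7.04 ± 0.41 in the two-cycle set. The two-cycle SHR arrays had GAPDH ratios from 1.93 to 3.10, and the part of this in the lower SHR signals was not tested.

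AT4G16270 had lower signals. It read 301, 278.9 and 362.1 in one-cycle WT and between 9.69 and 18.4 in one-cycle SHR. In the two-cycle set the WT arrays read 135.9, 654.9 and 231.7 and the SHR arrays 9.46, 34.5 and 20.2. The WT spread was wide there, but its lowest array still stood above the highest SHR array. The differences were 3.44 ± 0.23 and 3.03 ± 0.54. Prx37 read 641.6, 928.9 and 847.1 in one-cycle WT and 81.0, 58.7 and 59.0 in one-cycle SHR. Its two-cycle arrays read 1644, 911.4 and 1675 in WT and 287.8, 150.8 and 54.5 in SHR, again without overlap. The differences were 3.32 ± 0.32 and 3.17 ± 0.52.

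AT5G64120 ran the other way. It read 42.6, 37.3 and 27.5 in one-cycle WT against 1372, 702.3 and 913.3 in SHR, and 78.3, 62.4 and 82.7 in two-cycle WT against 2112, 1279 and 1372 in SHR. WT minus SHR was -4.25 ± 0.36 and -4.12 ± 0.26. In the fit across all probe sets, 34.5% were called in the one-cycle and 28.8% in the two-cycle comparison (limma, Benjamini-Hochberg adjusted p under 0.05), and all 5 genes were among them in both. These comparisons chose the genes, so nothing is read from that count. The 5 genes passed the filter on low signals in both sets, and the group where each is high was enough for this. The low group also lay above the filter's level of 46.0 in the one-cycle set for AT1G44970 and Prx37. In the two-cycle set it lay above the level of 53.7 for AT5G64120 and Prx37.

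**Figure D1:**
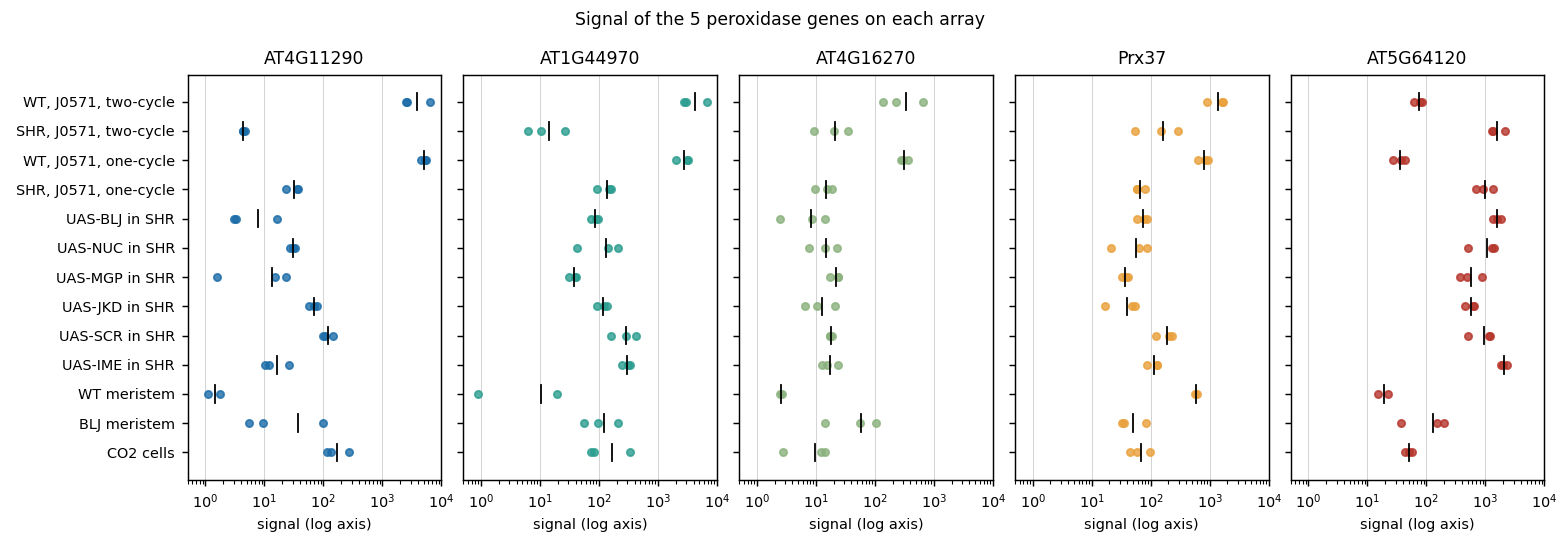
Signal of each of the 5 genes (x axis, log scale, no unit) on every array of the 13 groups (y axis). Points are arrays and bars are group means; 4 genes are high in the J0571 WT groups, Prx37 also in the WT meristem, and AT5G64120 is high in SHR and in the 6 UAS groups.

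The remaining peroxidases give the setting of this contrast. The family list was drawn up with earlier results of these data known. Of the 32 others tested in the one-cycle set, 3 were higher and 7 lower in WT, with a median change of -0.33 beside -0.07 over all probe sets. Higher in WT were AT5G66390 (PRX72, also needed for Casparian strip lignin) at 4557 ± 916 against 354.4 ± 75.2 (change 3.63 ± 0.42, limma adjusted p = 1.47e-06), AT4G33420 (2.12 ± 0.24) and AT5G06730 (1.19 ± 0.29). AT5G06730 had the opposite sign in the two-cycle set, where it did not pass the test (-1.78 ± 0.71, adjusted p = 0.0932). Lower in WT were AT4G36430 (-3.10 ± 0.45), AT5G64100 (-2.03 ± 0.29) and AT5G64110 (-0.91 ± 0.25), and the call of AT5G64110 ended without WT 2_3 or SHR 2_2 (largest adjusted p = 0.0554). In the two-cycle set 4 of 32 were higher and 10 lower, with a median of -0.57 beside 0.15 over all probe sets. AT5G66390 was again higher (6.66 ± 0.56), and AT2G37130 (-3.66 ± 0.28), AT5G64100 (-2.70 ± 0.26) and AT2G18980 (-2.93 ± 0.30) had the smallest adjusted p among those lower in WT. AT2G18980 had the opposite sign in the one-cycle set, where it did not pass the test (0.88 ± 0.58, adjusted p = 0.248).

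**Figure D2:**
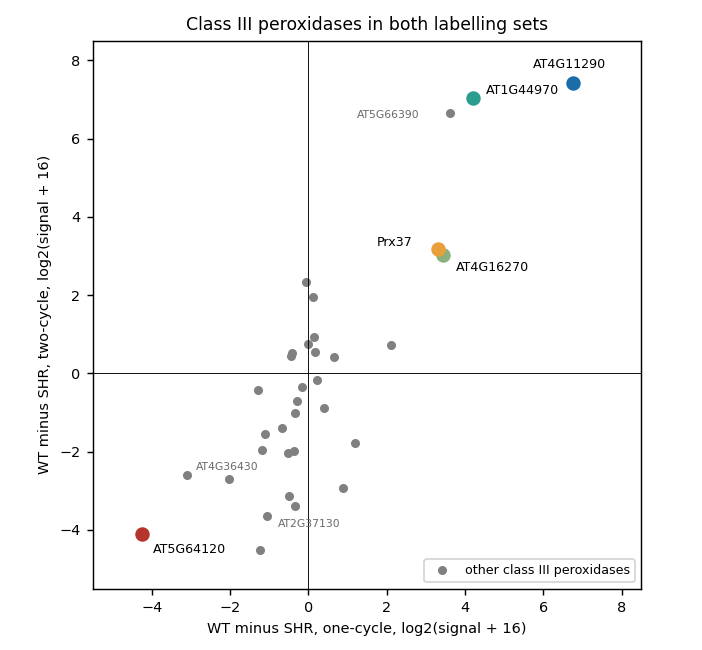
Change of each class III peroxidase tested in both sets, WT minus SHR on the log2(signal + 16) scale, in the one-cycle arrays (x axis) and the two-cycle arrays (y axis). The 5 genes are coloured; AT5G66390 lies beside AT1G44970 and AT4G11290 at the upper right, and AT5G64120 is lowest on the x axis at -4.25.

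Markers of the neighbouring cell types moved in the same contrast. The endodermis and Casparian strip list had 5 of 15 genes with a named probe set, and in the one-cycle set 4 were higher and 1 lower in WT. The dirigent gene DIR9 read 2688 ± 616 in WT and 309.2 ± 68.6 in SHR, and EN7 was the one lower in WT (-0.90 ± 0.26, adjusted p = 0.0105). Leaving out WT 2_1 or SHR 2_3 ended the EN7 call (largest adjusted p = 0.0631). In the two-cycle set 5 were higher in WT, EN7 among them, so its sign differed between the sets. The two-cycle EN7 call ended under 5 alternatives (limma, largest adjusted p = 0.1001). The summed signal of the 5 markers ranged from 7833 to 11210 in one-cycle WT and from 1399 to 2107 in SHR, with no marker under 125.9. The cortex list, measured in 5 of 5, summed to between 1195 and 1690 in WT and between 3520 and 4052 in SHR of the one-cycle set, where 1 gene was higher and 2 were lower in WT. AT5G02000 was the higher one (1.10 ± 0.21, adjusted p = 0.000376). AT1G62510 fell from 1145 ± 246 in SHR to 27.1 ± 2.9 in WT (-4.73 ± 0.27, adjusted p = 3.12e-11). In the two-cycle set the cortex sums ran the other way, from 1268 to 2375 in WT and from 500.1 to 1707 in SHR, with 2 genes tested by limma, 0 called and 0 at an unadjusted p under 0.05. AT1G62510 had mean signals of 66.8 in WT and 13.3 in SHR there and was not tested. The part of these shifts in the peroxidase signals was not tested.

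The 6 UAS lines set the SHR background with 1 driven factor against SHR and against WT. They share the 3 SHR arrays, or the 3 WT arrays, with the contrast that chose the genes, so their values are not independent of it. The values against WT are given as a description, since the WT arrays chose the genes: 4 genes were lower and AT5G64120 was higher in each of the 6 lines. Over all probe sets the share called against WT was 35% for UAS-BLJ, 23.8% for UAS-NUC, 33.6% for UAS-MGP, 31.3% for the line labelled UAS-JKD, 36.6% for UAS-SCR and 27.5% for UAS-IME. The change from WT ran from -7.79 to -5.27 for AT4G11290, from -5.69 to -3.15 for AT1G44970, from -3.78 to -3.13 for AT4G16270, from -3.93 to -2.04 for Prx37 and from 3.44 to 5.32 for AT5G64120. As a share of the one-cycle WT mean, the highest line reached 2.3% for AT4G11290 (UAS-SCR), 10.6% for AT1G44970 (UAS-IME), 6.87% for AT4G16270 (UAS-MGP) and 23.2% for Prx37 (UAS-SCR).

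Against SHR, 8 of the 30 changes passed the test. The SHR arrays also chose the genes, so these calls and their p-values are given as a description too. AT4G11290 read 147.3, 104.5 and 99.7 in UAS-SCR, 78.4, 70.2 and 57.0 in the line labelled UAS-JKD, and 3.33, 3.10 and 16.6 in UAS-BLJ. The arrays of the first pair of lines stood above and the UAS-BLJ arrays below the SHR range of 22.9 to 36.4. It rose in UAS-SCR by 1.48 ± 0.26 (limma adjusted p = 0.000255) and in the line labelled UAS-JKD by 0.83 ± 0.26 (adjusted p = 0.0141). In UAS-BLJ it fell by 1.04 on the log2 scale (SE 0.26, adjusted p = 0.0108). The call in the line labelled UAS-JKD ended with a pseudocount of 1 (adjusted p = 0.133), after quantile normalization (0.0502) and without SHR 2_2 (0.0696), and the UAS-BLJ call ended without UAS-BLJ 1 (0.0634) or 2 (0.0645). SHR and UAS-BLJ both lay under the filter's level of 46.0, near the floor of the arrays, so the gene passed the filter through other groups.

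In the other 3 lines AT4G11290 passed no test as fitted. Its signals were 30.0, 32.6 and 27.2 in UAS-NUC, 23.5, 1.54 and 15.2 in UAS-MGP, and 10.1, 11.9 and 26.3 in UAS-IME. The UAS-NUC arrays fell inside the SHR range. The change was -0.76 ± 0.26 in UAS-MGP (adjusted p = 0.0737, but 0.0290 after quantile normalization and 0.0360 without UAS-MGP 1) and -0.59 ± 0.26 in UAS-IME (adjusted p = 0.113, but 0.0305 after quantile normalization).

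AT1G44970 rose in 2 lines and fell in 1. It read 419.6, 157.7 and 288.9 in UAS-SCR, 330.7, 241.0 and 308.6 in UAS-IME, and 39.4, 41.2 and 30.7 in UAS-MGP. The UAS-IME arrays stood above and the UAS-MGP arrays below the SHR range of 92.6 to 160.8, and the lowest UAS-SCR array lay within it. The change was 1.06 ± 0.36 in UAS-IME (adjusted p = 0.0407), 0.96 ± 0.36 in UAS-SCR (adjusted p = 0.0357) and -1.47 ± 0.36 in UAS-MGP (adjusted p = 0.0142). The UAS-IME call ended without any 1 of the 6 arrays compared (adjusted p up to 0.180), the UAS-SCR call without SHR 2_2 (0.152), UAS-SCR 1 (0.170) or UAS-SCR 3 (0.0986), and the UAS-MGP call without SHR 2_1 (0.0550), SHR 2_3 (0.0626) or UAS-MGP 3 (0.0570). The UAS-IME call also ended with a pseudocount of 1 (0.0520), with no filter (0.0509) and after quantile normalization (0.0560), and the UAS-SCR call on the 6 arrays alone (0.0530).

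Prx37 rose in UAS-SCR. Its signals there were 227.9, 123.7 and 208.5, above the SHR range of 58.7 to 81.0, a change of 1.27 ± 0.32 (adjusted p = 0.00328) that no alternative ended. In UAS-IME it read 127.3, 85.6 and 125.9, also above SHR, but the change of 0.64 ± 0.32 passed no test as fitted (adjusted p = 0.153, and 0.0253 on the 6 arrays alone). In the other 4 lines no array exceeded 87.8. AT4G16270 passed the test in no line: its arrays lay between 2.42 and 23.9 in the 6 lines and between 9.69 and 18.4 in SHR, all under the filter's level of 46.0, and the changes ran from -0.34 to 0.30.

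AT5G64120 rose in UAS-IME, the direction away from WT. It read 2329, 1829 and 1986 there, above the SHR range of 702.3 to 1372, a change of 1.07 ± 0.36 (adjusted p = 0.0354). That call ended without SHR 2_2 (0.166), SHR 2_3 (0.0912) or any of UAS-IME 1, 2 and 3 (0.124, 0.0566 and 0.0706). In UAS-BLJ it read 1575, 1849 and 1344 (0.71 ± 0.36, adjusted p = 0.239, but 0.0249 on the 6 arrays alone), and in the line labelled UAS-JKD 618.7, 445.0 and 630.7 (-0.76 ± 0.36, adjusted p = 0.0823, but 0.0190 on the 6 arrays alone). UAS-NUC (514.8 to 1373), UAS-SCR (515.4 to 1183) and UAS-MGP (364.5 to 874.6) overlapped SHR.

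The members' counts stand beside the shares of all probe sets called against SHR. These were 11.1% in UAS-BLJ (1 of the 5 genes called), 40.7% in UAS-NUC (0 of 5 called, and 0 at an unadjusted p under 0.05), 9.07% in UAS-MGP (1 of 5), 46.2% in the line labelled UAS-JKD (1 of 5), 47.7% in UAS-SCR (3 of 5) and 21.1% in UAS-IME (2 of 5). The counts thus lay from 0 to 3 of 5 where the shares ran from 9.07% to 47.7%, and with 5 genes no count is read as a departure from its share. The lines other than UAS-BLJ are the groups with the higher 10th percentile of signals, and its part in the changes of low signals was not tested.

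**Figure D3:**
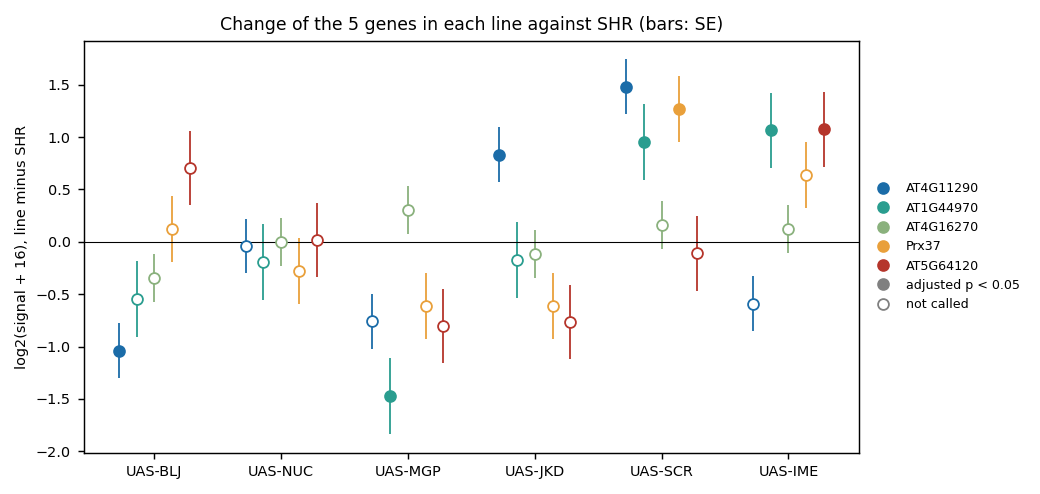
Change of each of the 5 genes in each UAS line against one-cycle SHR (y axis, log2(signal + 16), bars are SE). Filled points passed the test (adjusted p under 0.05); 3 genes are filled above 0 in UAS-SCR, and none is filled in UAS-NUC.

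Other peroxidases also moved in these lines. Of the 32 others, 16 rose and 1 fell in the line labelled UAS-JKD, with a median change of 0.64 beside 0.00 over all probe sets, and 16 rose and 1 fell in UAS-SCR, with a median of 0.71 beside 0.02. Over all probe sets, 3697 rose and 3590 fell in the former and 3955 rose and 3569 fell in the latter. AT1G30870, a root hair peroxidase, read 1495 ± 434 in the line labelled UAS-JKD (3.56 ± 0.42, adjusted p = 5.47e-06) and 1139 ± 529 in UAS-SCR (3.10 ± 0.42, adjusted p = 2.54e-05) against 119.9 ± 69.4 in SHR. AT2G39040 (3.18 ± 0.37) and AT3G49960 (3.55 ± 0.48) rose in the former, and AT5G17820 (3.30 ± 0.55) and AT4G33420 (1.58 ± 0.24) in the latter. PRXR1 was the one that fell in both, by 0.68 and 1.21 on the log2 scale, and its call in the former ended without the third array of that line (adjusted p = 0.0569).

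Root hair genes moved in the same lines. The epidermis and root hair list had 2 of 8 genes named, EXPA7 and EXPA18, both wall expansins of root hairs. Both rose in the line labelled UAS-JKD (2.86 ± 0.46 and 2.14 ± 0.35) and in UAS-SCR (2.21 ± 0.46 and 1.60 ± 0.35). Their summed signal ranged from 92.0 to 140.2 in SHR, from 603.5 to 961.7 in the line labelled UAS-JKD and from 339.2 to 804.3 in UAS-SCR, with no marker under 22.3 in any of these. The endodermis list had 4 genes up and 1 down in UAS-SCR, with SGN1, a kinase of Casparian strip formation, up by 2.02 ± 0.34 and DIR18 by 1.94 ± 0.38. Its sum ranged from 2485 to 5069 in UAS-SCR and from 2622 to 3191 in UAS-IME, against 1399 to 2107 in SHR. In the line labelled UAS-JKD it had 1 gene up and 2 down, DIR9 among the latter (-0.96 ± 0.32, adjusted p = 0.018), and its sum ranged from 1333 to 1641. Leaving out SHR 2_1 or the second array of the line ended the DIR9 call (largest adjusted p = 0.102). GAPDH ratios in that line and in UAS-SCR lay above those of SHR, as did those in UAS-NUC, UAS-MGP and UAS-IME. The part of these values in the peroxidase changes was not tested. No gene of the stele and root cap lists (6 and 3 genes) was named.

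In the remaining lines the counts are set beside the share of all probe sets called, and no departure from it is read. In UAS-BLJ 4 of the 32 others rose and 3 fell (share 11.1%), in UAS-NUC 6 rose and 3 fell (40.7%), in UAS-MGP 0 rose and 1 fell (9.07%), and in UAS-IME 7 rose and 0 fell (21.1%). Their median changes were 0.28, 0.42, -0.25 and 0.26, beside -0.01, -0.02, 0.05 and 0.01 over all probe sets. AT5G19880 rose in UAS-BLJ (1.93 ± 0.36) and UAS-IME (2.59 ± 0.36), and so did AT5G64110 (1.28 ± 0.25 and 1.42 ± 0.25). AT1G14550 rose in UAS-BLJ (2.31 ± 0.46), UAS-NUC (2.21 ± 0.46) and UAS-IME (2.83 ± 0.46), and AT3G49960 in UAS-NUC (1.85 ± 0.48). AT5G66390 fell in UAS-BLJ (-1.45 ± 0.42, adjusted p = 0.0289) and UAS-MGP (-1.79 ± 0.42, adjusted p = 0.0113), where AT4G11290 and AT1G44970 fell in 1 line each. Both AT5G66390 calls ended without single arrays: SHR 2_1, SHR 2_3, UAS-BLJ 1 or UAS-BLJ 3 for UAS-BLJ (adjusted p up to 0.110), and SHR 2_1 or UAS-MGP 1 for UAS-MGP (up to 0.0714). DIR9 of the endodermis list also fell in UAS-BLJ and UAS-MGP (-1.43 ± 0.32 and -1.56 ± 0.32), and the list's sum ranged from 1218 to 1338 in UAS-BLJ and from 918 to 1343 in UAS-MGP, against 1399 to 2107 in SHR. Its part was not tested. Of 5 Casparian strip peroxidases 3 were named (AT4G11290, AT1G44970 and AT5G66390): 3 rose in UAS-SCR, 1 each in UAS-IME and in the line labelled UAS-JKD, 2 fell in UAS-BLJ and 2 in UAS-MGP, and 0 were called in UAS-NUC. With 2 of the 3 being among the 5 genes, this repeats values given above. Of 6 root hair peroxidases 3 were named, and 2 rose in each of UAS-NUC, UAS-SCR and the line labelled UAS-JKD. The counts for UAS-BLJ, UAS-NUC, UAS-MGP and UAS-IME changed by over 1.5 times when single arrays were left out, as the closing section gives.

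**Figure D4:**
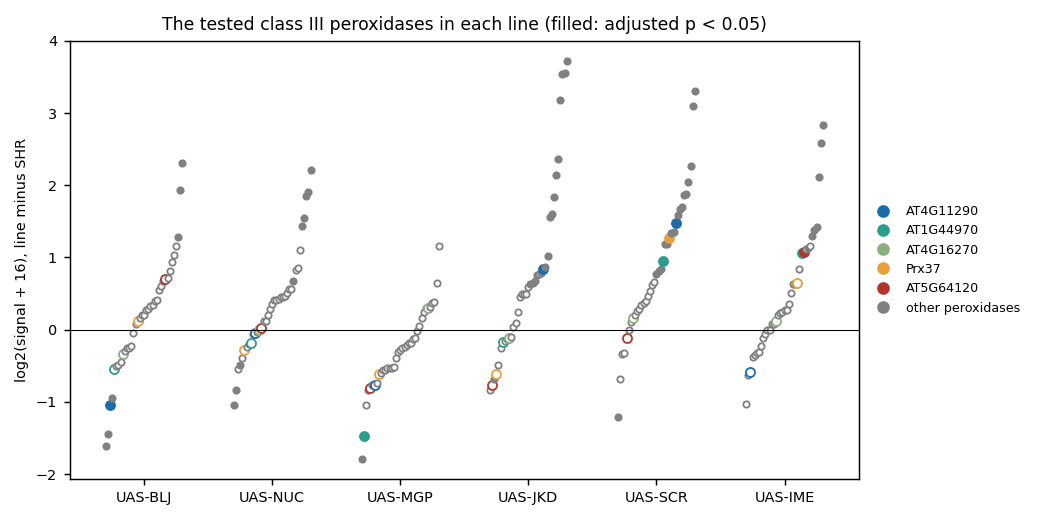
Change of the 37 tested class III peroxidases against one-cycle SHR (y axis, log2(signal + 16)) in each UAS line, ordered by size within a line. Filled points passed the test; most filled points lie above 0 in the line labelled UAS-JKD and in UAS-SCR.

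Of the other lists of the pathway, UPB1 and its 3 peroxidase targets (AT4G11290, AT4G16270 and AT5G17820) all had a named probe set. UPB1 itself was higher in WT than in SHR (1439 ± 134 against 624 ± 217, 1.23 ± 0.22, adjusted p = 0.000178) in the one-cycle set, but not past the test in the two-cycle set (0.35 ± 0.23, adjusted p = 0.269). It rose in the line labelled UAS-JKD (1.29 ± 0.22) and in UAS-SCR (1.05 ± 0.22), where its known target AT4G11290 also rose. Of the 10 NADPH oxidases, which make the superoxide that feeds peroxidases, 3 were named and 2 tested in the one-cycle set. RBOHE (AT1G19230) and RBOHG (AT4G25090) rose in the line labelled UAS-JKD (1.48 ± 0.30 and 0.92 ± 0.25) and in UAS-SCR (1.42 ± 0.30 and 1.18 ± 0.25), and the RBOHG call in the former ended after quantile normalization (adjusted p = 0.0959). RBOHG also rose in UAS-IME (1.04 ± 0.25), RBOHE in UAS-NUC (0.87 ± 0.30), and RBOHG was higher in one-cycle WT than in SHR (0.75 ± 0.25). The last 2 calls ended when single arrays were left out (adjusted p up to 0.125 and 0.149). Of 19 genes of lignin monomer synthesis, 2 were named: CCR2 was higher in one-cycle WT than in SHR (2.27 ± 0.46, adjusted p = 0.000703), with -1.94 ± 0.72 in the two-cycle set (adjusted p = 0.0757). HCT rose in UAS-NUC (0.66 ± 0.23) and UAS-IME (0.79 ± 0.23), calls that ended without SHR 2_2 among others (adjusted p up to 0.198 and 0.0945). Of 13 laccases 1 was named and 0 passed the filter.

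The meristem comparison, BLJ against WT in Columbia, called 2.72% of the probe sets, with a median change of -0.15, on quantile-normalized values because the array medians spanned 1.27 on the log2 scale. Prx37 read 601.2 and 558.2 in the 2 WT arrays and 35.4, 84.0 and 33.2 in the 3 BLJ arrays. The WT arrays were thus far higher. This difference of -3.48 ± 0.48 helped choose the gene and is given as a description. AT5G64120 read 15.4 and 22.8 in WT and 199.9, 36.9 and 151.1 in BLJ as deposited, and its change of 0.80 ± 0.80 did not pass the test (adjusted p = 0.541).

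The other 3 genes did not pass the filter in the meristem. AT4G11290 read 1.12 and 1.77 in WT and 5.38, 9.54 and 96.7 in BLJ, so 1 BLJ array stood far above the rest. AT1G44970 read 0.885 and 19.5 in WT and 54.9, 93.9 and 207.8 in BLJ. AT4G16270 read 2.44 and 2.63 in WT and 14.1, 55.1 and 104.4 in BLJ. For each of these genes the BLJ arrays lay above the WT arrays in the values as deposited. The share of all probe sets without overlap is not given here, so nothing is read from this. The 10th percentile was also higher in the BLJ arrays, at 11.4 to 17.2 against 2.58 to 3.31. So was the median signal, at 88.4 to 177.5 against 64.4 to 65.9. GAPDH ratios were 4.17 to 9.09 in BLJ and 3.42 to 3.59 in WT. Their part in these differences was not tested.

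Over all probe sets tested in the meristem, 354 were called higher and 69 lower in BLJ. Of the 31 other peroxidases tested there, 8 were higher and 0 lower in BLJ. AT5G64100 (4.70 ± 0.36, adjusted p = 0.0063), AT3G21770 (4.38 ± 0.44) and AT2G37130 (3.77 ± 0.40) led them. Without WT 1, WT 2 or BLJ 2, the call of Prx37 ended (adjusted p = 0.341, 0.297 and 0.165) and the peroxidases called fell from 9 to 1, 1 and 0. At an unadjusted p under 0.05, 14 passed where 0 were called.

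CO2 cells were set against J0571 WT cells and against the WT meristem. The first pair differs in ecotype, marker and zone at once, and the second in sorting, so these cannot be told apart from cell type. GAPDH ratios were 2.57 to 3.27 in CO2 cells, 0.154 to 0.493 in one-cycle J0571 WT and 3.42 to 3.59 in the WT meristem, and their part in the differences was not tested. The markers of the cortex list were divided against J0571 cells, with 2 of 5 higher and 3 lower in CO2 cells: AT1G62510 read 656.7 ± 23.2 against 27.1 ± 2.9, and the CO2 gene itself, AT1G62500, 79.1 ± 73.7 against 238.5 ± 66.6. Against the WT meristem 4 of 5 were higher in CO2 cells and 0 lower, and AT1G62500 was the one not called. AT4G11290 read 267.3, 115.3 and 133.9 in CO2 cells, under every J0571 WT array, and this difference (-4.84 ± 0.28) helped choose it. The comparison with J0571 cells called 57.3% of the probe sets and uses the WT arrays of the contrast that chose all 5 genes. AT1G44970 (338.1, 81.7 and 72.5 in CO2 cells) was lower (-4.23 ± 0.48, given as a description like the next 2, since the J0571 WT arrays chose the genes), and so were AT4G16270 (14.1, 12.3 and 2.73; -3.70 ± 0.24) and Prx37 (99.1, 45.3 and 57.7; -3.34 ± 0.26). AT4G16270 lay under this fit's filter level of 34.1 in CO2 cells and passed the filter through J0571 WT. The median change over all probe sets was -0.23. AT5G64120 read 42.9, 50.4 and 58.0, just above the one-cycle WT arrays (0.36 ± 0.21, adjusted p = 0.168, but 0.0369 after quantile normalization). This too is a description, since those WT arrays helped choose the gene. The endodermis markers summed to between 1080 and 2235 in CO2 cells, and all 5 were lower than in J0571 cells. Their part was not tested. Of the 26 other peroxidases tested, 9 were higher and 9 lower in CO2 cells, among them AT5G51890 (2.80 ± 0.40) and AT5G66390 (-3.11 ± 0.40).

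Against the WT meristem, where 72.5% of the probe sets were called, AT4G11290 was higher in CO2 cells by 3.35 ± 0.34. This value is a description, since the CO2 arrays helped choose that gene. AT1G44970 was higher by 2.57 ± 0.59 (adjusted p = 0.00432) and AT5G64120 by 0.92 ± 0.25 (adjusted p = 0.00878). Both calls ended without meristem WT 1, which leaves 1 WT array, with changes of 2.03 and 0.77. AT4G11290, AT1G44970 and AT5G64120 lay under this fit's filter level of 31.7 in the WT meristem. They passed the filter through CO2 cells, where they are high, so these p-values are given as a description too. Prx37 was lower in CO2 cells (-2.89 ± 0.29), also a description, since the WT meristem arrays helped choose this gene. It alone of the 4 genes tested here was high in the WT meristem, and AT4G16270 was not tested. Over all probe sets the median change was -0.30. Of the 25 other peroxidases tested, 16 were higher in CO2 cells and 6 lower, with AT3G01190 (7.19 ± 0.25), AT4G30170 (7.98 ± 0.29) and AT3G21770 (6.72 ± 0.29) at the head of the first.

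The order of the 13 groups differed between the genes. AT4G11290 ranked from both J0571 WT groups through CO2 cells, UAS-SCR and the line labelled UAS-JKD to the WT meristem at 1.45 ± 0.46 (n = 2). Neighbours in this order did not overlap between two-cycle WT and CO2 cells, between UAS-SCR and the line labelled UAS-JKD, between UAS-NUC and UAS-IME, and between two-cycle SHR and the WT meristem, and overlapped at the other steps. AT1G44970 put UAS-IME (293.4 ± 46.7) and UAS-SCR (288.7 ± 130.9), which overlapped, next after WT. For AT4G16270 the one step without overlap was that from one-cycle WT (314 ± 43.1) to the BLJ meristem (57.8 ± 45.2), and every other group overlapped the next. Prx37 alone of the 5 had the WT meristem (579.7 ± 30.4) next after both J0571 WT groups, with no overlap to one-cycle WT above or UAS-SCR below. AT5G64120 was highest in UAS-IME (2048 ± 256) and overlapped from group to group down to the line labelled UAS-JKD (564.8 ± 103.9). A gap then followed to the BLJ meristem (129.3 ± 83.7), and its lowest groups were one-cycle WT (35.8 ± 7.7) and the WT meristem (19.1 ± 5.2).

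Likeness of pattern was measured as Pearson's correlation of the group means of log2(signal + 16) over the 13 groups, which share protocols, ecotypes and array quality. It is a description of 13 points. Among the 5 genes, AT4G11290 ran closest to AT1G44970 (r = 0.92) and AT4G16270 (r = 0.88), and Prx37 less so (r = 0.66 with AT4G11290). AT5G64120 had r from -0.56 to -0.28 with the other 4. Out of 8744 probe sets of 1 gene, AT4G11290 was most like AT2G48130 (r = 0.94), AT1G33320 and AT4G09890. AT1G44970 was most like AT1G71740 (r = 0.96), the dirigent gene AT2G39430 (DIR9) and AT1G43020. AT4G16270 was most like TBL19 (r = 0.98), AT2G38905 and AT1G20380, and Prx37 most like AT5G45210 (r = 0.94), AT4G16447 and AT3G23160. For AT5G64120, 2 of the 3 were peroxidases, AT4G36430 (r = 0.95) and AT1G14550 (r = 0.92), beside ICDH (r = 0.93).

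By gene order, AT5G64120 lies directly after the peroxidase gene AT5G64110, and Prx37 directly before the peroxidase gene AT4G08780. The other 3 genes have no peroxidase as a direct neighbour. Whether the probe sets of such neighbours also bind each other's transcripts was not tested. AT5G64110 was lower in one-cycle WT than in SHR, as AT5G64120 was. In UAS-BLJ the changes were 1.28 ± 0.25 for AT5G64110 and 0.71 ± 0.36 for AT5G64120, and in UAS-IME 1.42 ± 0.25 and 1.07 ± 0.36. The differences between the neighbours were not tested.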

How the data were processed

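The authors deposited 1 linear intensity per probe set and array. The submitters' processing notes name MAS5 and give no version. Each array has the same 2% trimmed mean. No 2 arrays held identical values. Of 22810 probe sets, 64 controls were left out. The probe annotation names 1 gene for 13513 and several for 503, and leaves 8730 unnamed here; 13436 were matched to a locus of TAIR10.1, used for names and gene order only. Of 73 class III peroxidase loci, 55 had a named probe set. No sequence is printed.

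Changes were fitted with limma 3.58.1 (lmFit, eBayes with a trend) in R 4.3.3 on log2(signal + 16), with matplotlib 3.10.9 for the plots. No further scaling was applied except quantile normalization where array medians spanned over 0.5 on the log2 scale (the meristem fit). Probe sets above the 40th percentile of a fit's values in as many arrays as the smaller group holds were tested, 14331 to 15777 per fit, and p-values were adjusted over all of them. The 24 one-cycle J0571 arrays entered 1 model, and each remaining comparison was fitted to its 2 groups, 17 comparisons in all. The code was tested on simulated data. The number of arrays limits the precision.

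The members and all gene lists were chosen with earlier results of these data known. Of the other peroxidases, those named are up to 3 called per direction of smallest adjusted p in a comparison. Of other lists up to 2 called are named; genes named beyond this (EN7, AT5G02000, AT1G62500, and DIR9 in the line labelled UAS-JKD) and the driven genes BLJ and JKD were chosen after their values were seen. Alternatives were pseudocounts of 1 and 64, no filter, the other normalization, each array left out, the compared arrays alone and the replicate number as a block.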

Additional observations from a re-analysis of the deposited data

How the results depend on the processing

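No change of the 5 genes that was called, under the main settings or an alternative, reversed its direction. Among the recomputed values of their changes, 837 kept their side of the threshold, 31 lost the call and 7 gained it, as the Results give for each gene. The calls against WT and against SHR reuse arrays that chose the genes, and nothing is read from their stability. Of 401 called changes of other listed genes, 120 ended under at least 1 alternative and 0 reversed. The number of class III peroxidases called moved by over 1.5 times in 6 comparisons. Leaving out 1 array in turn gave 4 to 7 for UAS-BLJ against SHR (8 with all arrays; 4 without UAS-BLJ 1, 5 without SHR 2_1, SHR 2_3 or UAS-BLJ 3) and 3 to 15 for UAS-NUC (9; 3 without SHR 2_2 or UAS-NUC 1, 4 without UAS-NUC 3, 15 without UAS-NUC 2). It gave 0 to 4 for UAS-MGP (2; 0 without SHR 2_1, where 6 passed at an unadjusted p under 0.05, 1 without SHR 2_3 or UAS-MGP 3, 4 without UAS-MGP 2) and 5 to 10 for UAS-IME (9; 5 without SHR 2_2, UAS-IME 1 or UAS-IME 3). For BLJ against WT meristems it gave 0 to 13 (9; 1 without WT 1 or WT 2, 0 without BLJ 2), and the values as deposited gave 15. Fits with the replicate block used the arrays of the compared groups alone, so the one-cycle fit also lost the UAS arrays. In these fits, peroxidases called were 24 in place of 15 for WT against SHR in the one-cycle set and 17 in place of 19 in the two-cycle set. They were 14 in place of 9 in meristems and 25 in place of 26 for CO2 cells against meristems. Arrays of the same number deviated from their group means with correlations of -0.27 to 0.37, so the numbers were not taken as pairs. In the one-cycle WT and SHR arrays these correlations were 0.37, 0.33 and -0.07. The UAS lines share no replicate numbers with the one-cycle WT and SHR arrays they were compared with, nor do CO2 cells with one-cycle J0571 WT. The cause of these moves was not tested.

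The share of all probe sets called moved by over 1.5 times with no filter, where more probe sets were tested, to 22.6% and 17.1% for WT against SHR (one-cycle and two-cycle), 7.02% for UAS-BLJ against SHR, 1.48% for meristems and 37.6% for CO2 against J0571 cells. On the 6 compared arrays alone it was 24.8% for UAS-BLJ and 25% for UAS-NUC against SHR and 11.5% for UAS-NUC against WT. The block gave 18.5% in the two-cycle set and 18.3% in meristems, where the values as deposited gave 13.4%. Single arrays left out gave 13.8% to 27.1% in the two-cycle set, 22.2% to 53.1% in UAS-NUC, 4.99% to 6.75% in UAS-MGP, 28.1% to 47.7% in UAS-SCR, 12.1% to 18.5% in UAS-IME and 0% to 14.4% in meristems. Signals under the filter's level limit what can be seen of AT4G16270 in the UAS lines and in one-cycle SHR. The same holds for AT4G11290 in one-cycle SHR, UAS-BLJ, UAS-NUC, UAS-MGP and UAS-IME, and for AT1G44970 and Prx37 in UAS-MGP. Every change of AT4G11290 or AT4G16270 against SHR thus has a reference under that level.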
